A study of Mus musculus with 15 samples.

Results

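This account follows 9 genes of the Slc13 and Slc26 transporter families, which move sulfate, citrate and other dicarboxylates, oxalate, chloride and bicarbonate across kidney cell membranes. They were chosen by gene symbol from the 47069 genes of the table, and all 9 were found: Slc13a1, Slc13a2, Slc13a3, Slc26a1, Slc26a2, Slc26a4, Slc26a6, Slc26a7 and Slc26a11. The table held 15 RNA-Seq libraries from male C57BL/6 mice that were 2 months old, with no genotype or treatment named for any group. Of these, 12 were made from microdissected proximal tubules labelled PTS2 (sets m1, m2 and m3, each with replicates numbered 1 to 4), and 3 were made from whole kidney. The title of the series asks how markers of single cell types are represented in whole-kidney RNA. Each PTS2 library came from a single tubule whose cDNA was amplified, and the labels do not say whether a set is 1 mouse. The p-values below therefore measure the spread between these libraries, which may be partly technical.

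In the proximal tubule, Slc13 carriers use the sodium gradient to take up sulfate or dicarboxylates from the filtrate or the blood, and Slc26 proteins exchange one anion for another. Sulfate enters through the apical carrier NaS1 (Slc13a1) and leaves across the basolateral membrane through Sat1 (Slc26a1). In the collecting system, pendrin (Slc26a4) and Slc26a7 are exchangers of intercalated cells, which secrete acid or base.

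The labels were first set against markers of other cells. In PTS2 the 3 S1 markers summed to 5.83% of the whole kidney mean, the 2 S2 markers to 86.2% and the 3 S3 markers to 241%, so the tubules carried more S3 than S1 message. The 2 S2 markers did not behave alike. Slc22a6 had means of 585 TPM in PTS2 and 486 TPM in kidney, which did not pass the fit described below (limma adjusted p = 0.670). Its mean in the 9 tubules not numbered 4 was 481 TPM. Slc22a8 had means of 68.0 TPM in PTS2 and 272 TPM in kidney. In Slc22a8 every tubule lay below every kidney library. The sum for the labelled segment was thus not above whole kidney on average. Replicate 3 of set m3 stood apart, with a thick ascending limb marker sum of 1408 TPM (transcript abundance scaled to transcript length and to a common total per library) against a PTS2 median of 10.3 TPM. Replicate 4 of set m1 had the next highest sum, at 54.97 TPM, and replicate 2 of set m2 was close to it, at 44.3 TPM. Number 4 libraries also had higher S2 sums, between 892 and 1149 TPM, than the other tubules, between 368 and 762 TPM. The depth of the libraries is unknown, because TPM do not carry it.

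Before the values, the stretches upstream of 3 members are shown. Of the 5 members with a listed promoter, only these had upstream bases outside annotated gene bodies. They also stand for 3 patterns below. Slc13a3 had the lowest adjusted p of the members over replicate numbers, Slc13a2 was the member that was higher in PTS2, and Slc26a4 was near 0 in PTS2. The sequences are RefSeq's, build GRCm38.p6, written 5′ to 3′ on the gene's strand and trimmed to bases outside annotated gene bodies. Capitals mark the GC box GGGCGG, a sequence that Sp-family factors bind.
Slc13a3, chr2:165473231-165473447, minus strand: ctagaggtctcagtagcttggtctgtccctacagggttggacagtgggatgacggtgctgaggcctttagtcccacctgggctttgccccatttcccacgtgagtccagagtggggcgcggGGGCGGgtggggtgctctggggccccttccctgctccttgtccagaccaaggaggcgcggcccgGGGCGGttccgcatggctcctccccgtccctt
Slc13a2, chr11:78422282-78422484, minus strand: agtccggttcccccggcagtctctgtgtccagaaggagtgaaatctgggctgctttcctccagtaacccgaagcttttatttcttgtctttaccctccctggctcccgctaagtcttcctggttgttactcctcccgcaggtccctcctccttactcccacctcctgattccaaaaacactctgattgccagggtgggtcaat
Slc26a4, chr12:31560056-31560234, minus strand: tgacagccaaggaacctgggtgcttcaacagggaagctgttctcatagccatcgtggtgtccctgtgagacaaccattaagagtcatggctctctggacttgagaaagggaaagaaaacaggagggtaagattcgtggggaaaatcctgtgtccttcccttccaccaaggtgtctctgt

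The promoter windows differed in base composition. Each window ran from 250 bases before to 50 bases after a start site, and 5 of the 9 members had one. The Slc13a3 window had 69.3% G and C and 22 CpG pairs, and the Slc13a2 window 54.3% and 8, against medians of 52.7% and 7 over 32851 windows. The Slc26a4 window had 6 CpG pairs, and 39.3% of windows had less G and C than it. The GC box, searched on both strands and chosen after the sequences were read, was at 129 and 65 bases before the Slc13a3 start and was found in 35.7% of all windows. The Slc26a6 window also held 1, on the opposite strand, 56 bases before the start. An HNF1 half-site (GTTAAT), an HNF4 site (CAAAGTCCA) and a forkhead core (TGTTTAC) were searched in the same way. None of these was matched in the stretches shown, the forkhead core was matched in 1 of the 2 Slc26a1 windows, and they were found in 7.10%, 0.475% and 3.65% of all windows.

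Levels of the members ran from 336 TPM (Slc13a3) to 0 in PTS2, and the order differed between materials. In PTS2 the order of mean levels was Slc13a1 (234 TPM), Slc13a3 (201 TPM), Slc13a2 (99.5 TPM), Slc26a1 (52.2 TPM), Slc26a6 (10.9 TPM), Slc26a11 (7.43 TPM), Slc26a2 (6.34 TPM), Slc26a4 (0.0633 TPM) and Slc26a7 (0.0267 TPM). Neighbours in this order were not always apart: Slc13a1 was above Slc13a3 in 11 of 12 tubules, Slc26a6 above Slc26a11 in 11, and Slc26a11 above Slc26a2 in 9. In whole kidney Slc26a1 was above Slc13a2 in 3 of 3 libraries, whereas in PTS2 Slc13a2 was above Slc26a1 in 12 of 12. The ranges of Slc26a11 and Slc26a2 overlapped in whole kidney too. The 3 Slc13 genes held 87.5% ± 1.34 (SD, n = 12) of the summed level of the 9 members in the tubules. In whole kidney they held 76.2% ± 2.84 (SD, n = 3). In the plot of all members by library, each of the 15 values can be read for each gene.

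**Figure D1:**
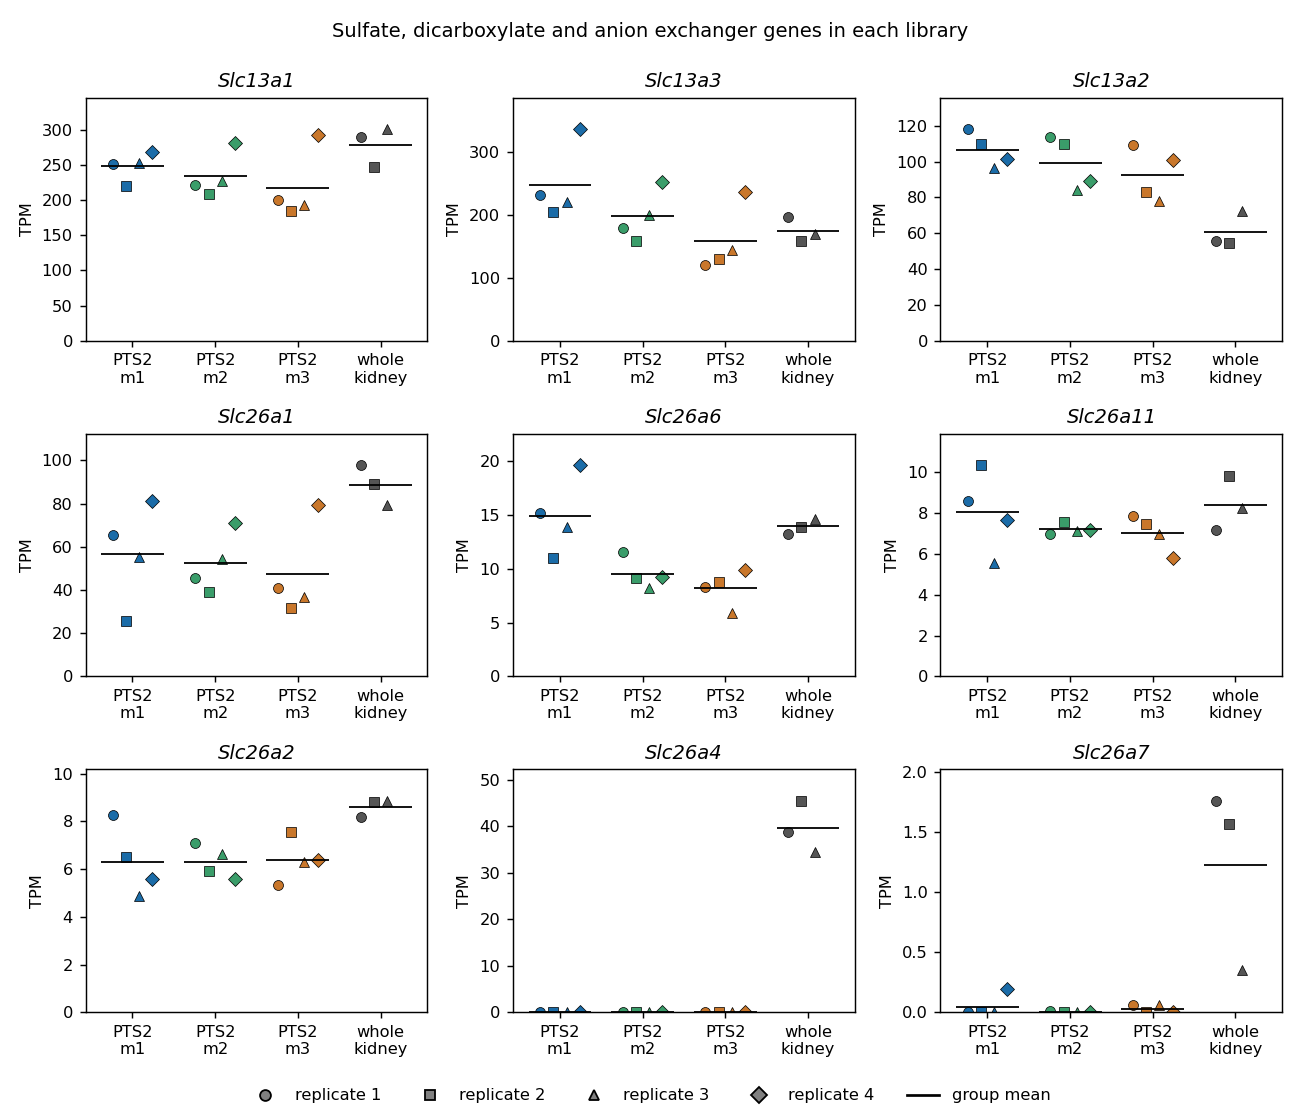
Level of the 9 genes (TPM, linear axis from 0, one panel per gene) in each library of PTS2 sets m1, m2 and m3 and of whole kidney. Point shapes give the replicate number and lines the group means; every PTS2 value of Slc13a2 lies above the 3 kidney values, and those of Slc26a4 and Slc26a7 lie below.

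PTS2 was compared with whole kidney by limma on log2(TPM + 1) over 12039 genes. In whole kidney a lower level can come from fewer cells of a type or from less RNA per cell, and these cannot be told apart in bulk samples. Of the 8 members tested, 1 rose in PTS2 (Slc13a2) and 3 were lower (Slc26a1, Slc26a2 and Slc26a4), and 4 did not pass. Slc26a4 passed the filter of a mean of at least 1 TPM only through its kidney level. Over all genes tested, 51.2% were called, 9.68% higher and 41.5% lower in PTS2, so that 4 of 8 is near the background. The median log2 difference of the members tested was -0.33 and that of all genes -0.27. Median-of-ratios rescaling moved the median of all genes to -0.003 and quantile normalization to 0.16, so small differences depend on the scaling. Without both tubules of highest thick ascending limb sums, 4 of 8 members were called.

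Slc13a2 encodes the apical sodium-dicarboxylate carrier NaDC1, which reclaims citrate from the filtrate. Its lowest, median and highest levels in PTS2 were 77.8, 101 and 118 TPM, and the kidney libraries held 55.8, 54.3 and 72.4 TPM. Every tubule lay above every kidney library, which 5.76% of all tested genes also did. The log2 difference was 0.70 ± 0.13 (SE, limma adjusted p = 0.000207), and it stayed positive and past the threshold in each of 24 alternatives, at 0.63 to 0.99. The means were 106 ± 9.47, 99.2 ± 14.7 and 92.8 ± 14.7 TPM (SD, n = 4 each) in m1, m2 and m3, so that each set was higher than the kidney mean of 60.8 ± 10.03 TPM (SD, n = 3). Slc13a2 (chr11:78397087-78422217, GRCm38, GENCODE M21) shares 632 exonic bases, or 26.2% of its own, with the antisense gene Slc13a2os. The amplification kit is not stated to keep strand, so reads there cannot be assigned. Slc13a2os had means of 1.52 ± 0.182 TPM in kidney (SD, n = 3) and 3.18 ± 0.775 TPM in tubules (SD, n = 12).

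Slc13a3 encodes NaDC3, the high-affinity dicarboxylate carrier that brings α-ketoglutarate and succinate in from the blood side. Its lowest, median and highest PTS2 levels were 120.5, 202 and 336 TPM, and the kidney values were 196, 159 and 170.07 TPM. Kidney values thus sat inside the PTS2 range. The log2 difference was 0.15 ± 0.23 (SE, limma adjusted p = 0.623), which did not pass the threshold. The ratio of Slc13a3 to Slc13a2 was 2.04 ± 0.620 (SD, n = 12) in PTS2, with a range from 1.10 to 3.30, and 2.93 ± 0.581 (SD, n = 3) in kidney.

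Slc13a1 encodes NaS1, the carrier that reabsorbs filtered sulfate. Its PTS2 levels ran from 185 through a median of 225 to 293 TPM, and the kidney levels were 290.2, 247 and 301 TPM. No tubule exceeded all kidney libraries, and 7 of 12 lay below all of them. The log2 difference of -0.27 ± 0.13 (SE, limma adjusted p = 0.0929) did not pass and equalled the median of all genes at this rounding. Scaling moved it both ways, to 0.02 under median-of-ratios rescaling (adjusted p = 0.900) and to -0.32 under quantile normalization (adjusted p = 0.0451). Slc13a1 passed in 4 of 24 alternatives, among them the one without replicate 4 of m3 (-0.30, adjusted p = 0.0376). Slc13a1 lies at chr6:24088283-24168092 (GRCm38), and its exons share no base with another annotated gene.

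Slc26a1 encodes Sat1, the basolateral exchanger through which sulfate leaves the cell in return for oxalate or bicarbonate. Its PTS2 levels had a minimum of 25.6, a median of 49.9 and a maximum of 81.1 TPM. The kidney libraries held 97.8, 89.3 and 79.2 TPM, and 10 of 12 tubules lay below all of them. The groups overlapped at replicate 4 of sets m1 and m3. The log2 difference was -0.83 ± 0.29 (SE, limma adjusted p = 0.0260), and its call was lost in 5 of 24 alternatives. Leaving out 1 kidney library gave adjusted p = 0.0996, 0.0787 and 0.0527 for replicates 1, 2 and 3, and median-of-ratios rescaling gave -0.54 with adjusted p = 0.126. Slc13a1 was 4.86 ± 1.39 times as abundant as Slc26a1 in PTS2 (SD, n = 12) and 3.18 ± 0.548 times in kidney (SD, n = 3). The gene (chr5:108669878-108675569, GRCm38) lies within Idua on the opposite strand and shares 141 exonic bases with it, or 3.48% of its own. Idua had means of 6.93 ± 1.16 TPM in kidney (SD, n = 3) and 9.53 ± 2.88 TPM in tubules (SD, n = 12).

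Slc26a6 encodes the apical exchanger CFEX or Pat1, which carries chloride, oxalate and other anions and is known for its part in oxalate secretion. Its lowest, median and highest PTS2 levels were 5.90, 9.56 and 19.6 TPM, and the kidney values were 13.3, 13.9 and 14.7 TPM. Tubules fell on both sides, with 9 below and 2 above all kidney libraries. The log2 difference of -0.39 ± 0.23 (SE) did not pass (limma adjusted p = 0.166), and its sign turned under quantile normalization (0.13, adjusted p = 0.641). Slc26a6 lies at chr9:108853283-108913049 (GRCm38) and has 10 annotated transcripts.

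Slc26a2 and Slc26a11 are sulfate transporters found in many tissues, and both were low in every library. Slc26a2, known for supplying sulfate to cartilage proteoglycans, ranged from 4.89 to 8.26 TPM with a median of 6.35 TPM in PTS2. In kidney it was at 8.19, 8.80 and 8.85 TPM, so that 11 of 12 tubules lay below. Its log2 difference was -0.40 ± 0.13 (SE, limma adjusted p = 0.0156). Without kidney replicate 2 or 3 the adjusted p was 0.0616 or 0.0620. Under quantile normalization it was 0.26 (adjusted p = 0.0867) and under median-of-ratios rescaling -0.14 (adjusted p = 0.369), so its direction depended on the scaling. Slc26a11 (chr11:119355557-119381079, GRCm38) ranged from 5.56 to 10.4 TPM with a median of 7.34 TPM in PTS2 and was at 7.19, 9.82 and 8.25 TPM in kidney. Its log2 difference was -0.16 ± 0.14 (SE, limma adjusted p = 0.349) and turned to 0.49 under quantile normalization (adjusted p = 0.0138).

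**Figure D2:**
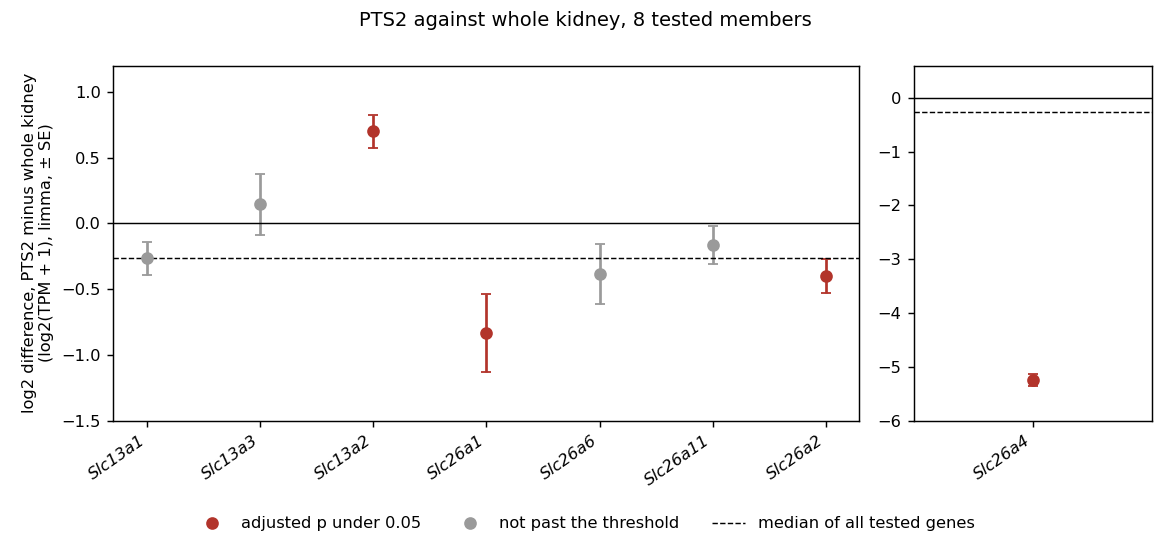
Log2 difference between PTS2 and whole kidney (log2(TPM + 1), limma, bars ± SE) for the 8 tested genes, with Slc26a4 on an axis of its own scale. Red points passed an adjusted p of 0.05; Slc13a2 lies at 0.70 and Slc26a4 at -5.25, and the dashed line is the median of all tested genes, -0.27.

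Pendrin was a kidney signal that the tubules hardly carried. Slc26a4 (chr12:31519827-31559969, GRCm38) was at 38.8, 45.4 and 34.6 TPM in the 3 kidney libraries. In PTS2 its highest value was 0.160 TPM and its median 0.0550 TPM, and it was listed at 0 in 3 of 12 tubules. The PTS2 mean was 0.160% of the kidney mean, and the log2 difference was -5.25 ± 0.11 (SE, limma adjusted p = 7.01e-16). Every tubule lay below every kidney library, as did 32.0% of all tested genes. On the log2(TPM + 1) scale this difference understates the ratio of the levels, and with a pseudocount of 0.1 it was -8.00.

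Slc26a7, a basolateral chloride-bicarbonate exchanger, was scarce even in whole kidney, at 1.76, 1.57 and 0.350 TPM. It was listed at 0 in 8 of 12 tubules, and the other values were 0.190 TPM in replicate 4 of m1, 0.0600 TPM in replicates 1 and 3 of m3 and 0.0100 TPM in replicate 1 of m2. Its mean over the libraries was under 1 TPM, so it did not enter the limma fit. Every tubule lay below every kidney library (exact two-sided permutation test, p = 0.0022, the smallest value that 455 arrangements allow). The arrangements treated the 12 tubules as independent and did not keep the sets together. The same separation was shown by 32.0% of all genes in the limma fit. Slc26a7 lies at chr4:14502430-14621805 (GRCm38).

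The markers of intercalated cells were near 0 in the same tubules. Each of the 10 markers on 3 intercalated lists was lower in every tubule than in every kidney library. The 4 shared markers (Foxi1, Atp6v1g3, Atp6v0d2 and Atp6v1b1) summed to a median of 0.245 TPM in PTS2, with a range from 0 to 3.46 TPM, against 151 to 163 TPM in kidney. Type A markers (Slc4a1, Aqp6 and Kit) summed to at most 0.610 TPM in PTS2 and at least 25.0 TPM in kidney. Markers of type B and non-A, non-B cells (Slc4a9, Insrr and Hmx2) summed to at most 0.140 TPM in PTS2 and at least 25.7 TPM in kidney. The highest shared sum was in replicate 3 of m3, where Atp6v1b1 was at 3.08 TPM and Slc26a4 at 0.05 TPM. In replicate 4 of m1, with the highest values of Slc26a4 and Slc26a7, the shared sum was 0.170 TPM.

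**Figure D3:**
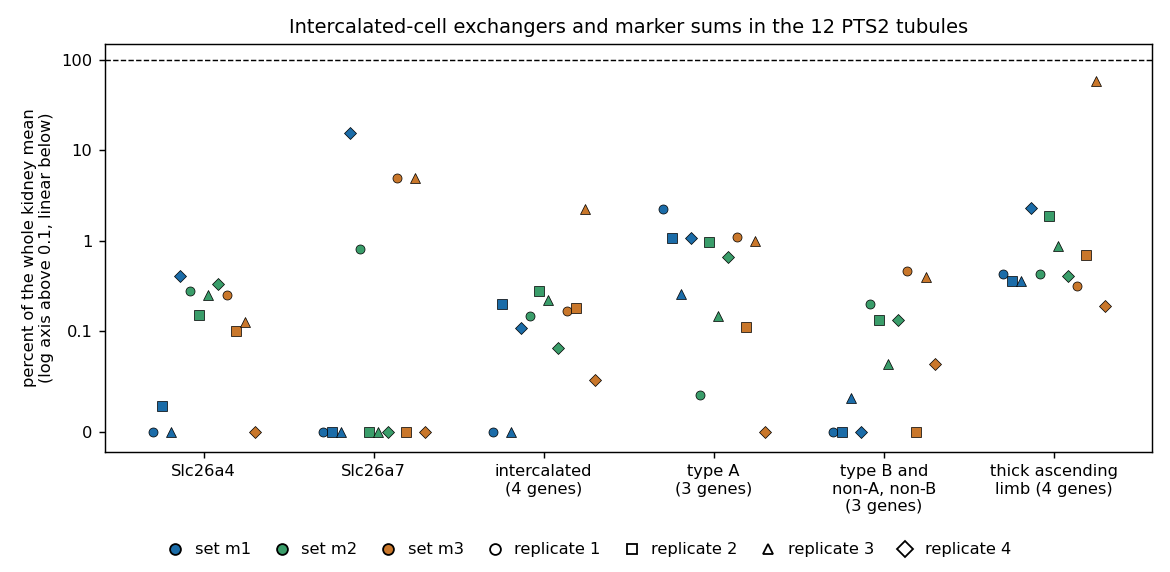
Slc26a4, Slc26a7 and 4 marker sums in the 12 PTS2 tubules as a percent of their whole kidney mean (dashed line at 100; the axis is logarithmic above 0.1 and linear below). Slc26a4 reaches at most 0.404%, Slc26a7 15.5% and the shared intercalated sum 2.22%, while the thick ascending limb sum of replicate 3 of m3 stands alone at 58.9%.

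Within PTS2, the 3 sets were compared with each other over 11300 genes, and 7 members entered the fit. By the F test over sets, 0 of the 7 passed an adjusted p of 0.05, where 3.02% of all genes did. An unadjusted p under 0.05 was reached by 2 of the 7 (Slc13a3 and Slc26a6) and by 1857 of the 11300 genes. The count of members passing depended on the model, because Slc13a3 and Slc26a6 were called with the replicate number as a block, as given at the end. Without that block Slc26a6 came closest. It held 15.2, 11.1, 13.9 and 19.6 TPM in m1, 11.6, 9.19, 8.18 and 9.23 TPM in m2 and 8.35, 8.78, 5.90 and 9.89 TPM in m3. All m3 values were thus below all m1 values, and m2 overlapped both. The log2 difference between m3 and m1 was -0.78 ± 0.18 (SE, limma adjusted p = 0.0343), a contrast in which 3.17% of all genes were called and 0.938% were called lower in m3. The other contrasts called 0 of 7 members, with 0.540% of all genes called between m2 and m1 and 1.97% between m3 and m2. The F test gave adjusted p = 0.0618, and passed under median-of-ratios rescaling (0.0201) and quantile normalization (0.0131). The contrast was not past the threshold in 9 of 19 alternatives, among them those without replicate 3 or 4 of m1, 2 or 4 of m2, or 1, 2 or 3 of m3 (adjusted p from 0.0503 to 0.0910). Leaving out both tubules with the highest thick ascending limb sums gave -0.52 (adjusted p = 0.185).

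Slc13a3 had its highest set mean in m1, at 248 ± 59.7 TPM. The means of m2 and m3 were 197 ± 39.99 and 158 ± 53.3 TPM (SD, n = 4 for each set). The log2 difference between m3 and m1 was -0.67 ± 0.21 (SE, limma adjusted p = 0.117). Leaving out replicate 4 of m3 moved it to -0.88 (adjusted p = 0.0219). The F test over sets called Slc13a3 when the replicate number was a block, as given at the end. Set means of Slc26a2 were 6.31, 6.31 and 6.40 TPM in m1, m2 and m3, and for Slc26a11 they were 8.06, 7.21 and 7.03 TPM. Neither gene had an F test adjusted p below 0.443 in any alternative.

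The replicate number was compared next. An F test over the 4 numbers with the set as a term called 2.71% of 11300 genes, and 2 of the 7 members, Slc13a3 (limma adjusted p = 0.00964) and Slc26a1 (adjusted p = 0.0280). An unadjusted p under 0.05 was reached by 2387 genes. Slc13a1 did not pass (adjusted p = 0.0680), except with the filter at a mean of 10 TPM (0.0354). In Slc13a1, Slc13a3 and Slc26a1 alike, number 4 was the highest library of its set in all 3 sets, which 4.79% of all genes also showed. For 1.06% of all genes number 4 was the highest in all 3 sets and the F test passed. The labels do not say what a number stands for, and no order is read from it.

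Slc13a3 in tubules numbered 4 had levels of 336, 252 and 236 TPM (m1, m2 and m3). The highest values among the other numbers were 231, 199 and 145 TPM, so that number 4 exceeded the mean of its set's other tubules 1.54, 1.41 and 1.80 times. Set and number together left 4.53% of the variation of its log2 values, with 44.9% going to the set and 50.5% to the number. Slc26a1 in tubules numbered 4 was at 81.1, 71.05 and 79.2 TPM, against 25.6 to 65.5, 39.04 to 54.4 and 31.9 to 40.8 TPM in the others of m1, m2 and m3. The number took 78.4% of its variation and the set 4.56%. Number 2 was the lowest library of Slc26a1 in all 3 sets, at 25.6, 39.04 and 31.9 TPM. Slc13a1 in tubules numbered 4 was at 269, 281 and 293 TPM, and in the others it ran from 185 to 253 TPM, with 66.6% of its variation going to the number.

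These calls changed when single libraries were left out. Without replicate 4 of m1, adjusted p was 0.0514 for Slc13a3 and 0.112 for Slc26a1, and the count of genes called fell from 306 to 75. Slc26a1 also missed the threshold without replicate 1 or 4 of m2 (0.0568 and 0.0633) and without replicate 1, 2 or 4 of m3 (0.0533, 0.0617 and 0.0967). Without a filter on low values, 0 genes were called over numbers. With number 4 left out of all sets, adjusted p was 0.363 for Slc13a3 and 0.243 for Slc26a1. Without both tubules of highest thick ascending limb sums, 0 members and 64 genes were called, with adjusted p = 0.0881 for Slc13a3 and 0.132 for Slc26a1. These tubules included replicate 4 of m1, so the fit cannot tell thick ascending limb message from the loss of a library numbered 4.

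Slc13a2 did not share the pattern of number 4. It was at 118, 114 and 109 TPM in tubules numbered 1 and 102, 89.01 and 101 TPM in those numbered 4, and its F test did not pass (adjusted p = 0.153). Slc26a6, Slc26a11 and Slc26a2 did not pass either, at adjusted p = 0.310, 0.456 and 0.756. Beside these values, S2 markers were higher in number 4, as given above. The S1 sum was between 60.5 and 79.9 TPM against 36.3 to 52.8 TPM, and the S3 sum between 1566 and 2202 TPM against 1960 to 2838 TPM. That S1 sum was nearly all Slc2a2, at 78.4, 60.5 and 70.2 TPM in number 4 of m1, m2 and m3. Slc5a2 in number 4 was at 1.38, 0.03 and 0.42 TPM, the highest of its set in m1 and the lowest in m2 and m3. Slc5a12 in number 4 was at 0.08, 0.03 and 0.07 TPM. A higher S1 level in number 4 thus rests on Slc2a2. The part of the segment markers in the levels of Slc13a3 and Slc26a1 was not tested.

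**Figure D4:**
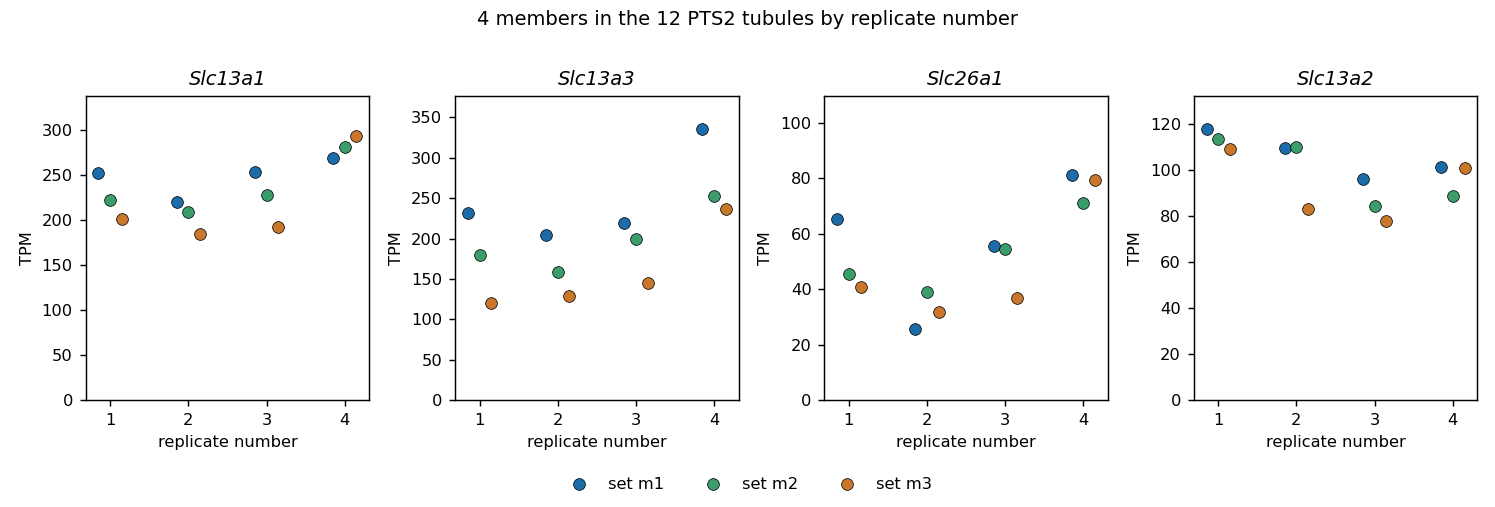
Level (TPM, linear axis from 0) of Slc13a1, Slc13a3, Slc26a1 and Slc13a2 in the 12 PTS2 tubules by replicate number, coloured by set. In the first 3 genes the tubule numbered 4 is the highest of its set in each set, and in Slc13a2 it is not.

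Genes that work beside these transporters were taken from 5 lists. For the counts against whole kidney, the shares over all genes tested were 9.68% higher and 41.5% lower in PTS2. Under the other scalings a larger part of all calls was higher, as given at the end. The rescaled counts of each list were not set against a share of their own. Of 13 partners and scaffolds, not all of them at the apical membrane, 2 were higher in PTS2, 7 lower and 4 not called. Their median log2 difference was -0.47. Under median-of-ratios rescaling 4 were higher and 5 lower, and under quantile normalization 2 and 6. The scaffold Pdzk1, which binds Slc26a6 at the brush border, rose from 1049.8 ± 23.7 TPM (SD, n = 3) in kidney to 1405 ± 107 TPM (SD, n = 12) in tubules (log2 difference 0.42, limma adjusted p = 0.000157). The scaffold Slc9a3r1 (NHERF1) also rose, from 247 ± 23.1 to 356 ± 30.1 TPM (0.52, adjusted p = 4.93e-05). Both were higher under each scaling. The scaffold Slc9a3r2 went the other way, from 63.7 ± 1.42 TPM in kidney to 9.37 ± 2.14 TPM in tubules. Its log2 difference was -2.67 (limma adjusted p = 1.18e-09), and it was lower under each scaling. Ezr (ezrin), which links such scaffolds to actin, was lower (-0.47, adjusted p = 0.000744), but did not pass under median-of-ratios rescaling (-0.18, adjusted p = 0.0540).

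Over the replicate numbers, 6 of these 13 partners were called: Slc9a3, Slc22a6, Slc22a8, Slc4a4, Car2 and Car4. The share over all genes was 2.71%, and the calls over numbers fell to 75 genes without replicate 4 of m1 and to 0 without a filter, as given above. Slc9a3, Slc22a8, Slc4a4 and Car2 are named after their values were seen, and Slc22a6 and Slc22a8 are also the 2 S2 markers. Slc22a6, the organic anion transporter that exchanges dicarboxylates taken up by Slc13a3, had a mean of 894 ± 108 TPM in the 3 tubules numbered 4 and 481 ± 144 TPM in the other 9 (SD; F test adjusted p = 0.0121). Car4, a membrane carbonic anhydrase, had means of 814.5 ± 122 and 486 ± 145 TPM (adjusted p = 0.0142).

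Car4 was also among the genes most like Slc13a3, by the mean absolute difference of centred log2(TPM + 1) over 15 libraries. The nearest were Slco1a6 (0.13), Slc5a11 (0.15) and Car4 (0.15), where the median over 12039 genes was 0.41. For Slc13a1 the nearest were Lgals8 (0.06), Tcn2 (0.07) and Smpdl3a (0.07), with a median of 0.27.

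Sulfate is made in cells from cysteine and sulfide. Of 11 genes listed for this route 10 were tested, and 3 were higher (Csad, Cbs and Cth), 3 lower (Got1, Ethe1 and Sqrdl) and 4 not called, with a median of 0.01. Under median-of-ratios rescaling 5 were higher and 1 lower (median 0.29), and under quantile normalization 5 and 3 (median 0.37). Csad, which turns cysteine sulfinate towards taurine, was at 209 ± 13.1 TPM (SD, n = 3) in kidney and 447 ± 67.9 TPM (SD, n = 12) in tubules. Its log2 difference was 1.08 ± 0.13 (SE; limma adjusted p = 3.17e-06). Cbs and Cth, which make cysteine from homocysteine, also rose, by 1.13 and 0.80 (adjusted p = 0.00032 and 7.55e-06). These 3 rose under each scaling. The sulfide-oxidising enzymes Ethe1 (-0.61, adjusted p = 0.0161) and Sqrdl (-0.27, adjusted p = 0.0128) were lower, but neither passed under median-of-ratios rescaling, where Sqrdl was at 0.02. Got1 had means of 126 ± 7.47 TPM in kidney and 41.3 ± 9.14 TPM in tubules. Its log2 difference was -1.62 (limma adjusted p = 7.11e-07), and it was lower under each scaling.

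Of 15 genes that activate or use sulfate, 3 were higher (Papss2, Slc35b2 and Slc35b3), 7 lower and 5 not called, with a median of -0.35. Among the 7, Tpst1 passed the filter only through its kidney level. Under median-of-ratios rescaling 5 were higher and 5 lower, and under quantile normalization 4 and 6. Papss2, which makes the activated sulfate donor, rose from 152 ± 16.1 TPM (SD, n = 3) in kidney to 239.9 ± 29.97 TPM (SD, n = 12) in tubules, a difference of 0.65 (limma adjusted p = 0.000145). Papss1, which does the same step, did not pass in that comparison (0.03, adjusted p = 0.882), but did under median-of-ratios rescaling (0.32, adjusted p = 0.0407). Among sets its means were 77.1 ± 8.14, 82.96 ± 4.93 and 113 ± 10.7 TPM for m1, m2 and m3 (SD, 4 tubules each), and the F test passed (adjusted p = 0.0079). Sult1c2, a sulfotransferase, was lower in PTS2 under each scaling (-0.93, adjusted p = 0.000277) and also differed among sets (F test adjusted p = 0.00986).

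Of 14 genes of citrate and dicarboxylate metabolism, 1 was higher (Aco1), 5 lower (Cs, Idh1, Idh2, Mdh2 and Sdha) and 8 not called, with a median of -0.06. Under median-of-ratios rescaling 8 were higher and 2 lower, and under quantile normalization 3 and 6, so the direction of this list depended on the scaling. Idh2, a mitochondrial isocitrate dehydrogenase, was at 768 ± 45.2 TPM (SD, n = 3) in kidney and 513.5 ± 33.1 TPM (SD, n = 12) in tubules, and was lower under each scaling. Sdha, a succinate dehydrogenase subunit, was lower (-0.29, limma adjusted p = 0.0141) but at 0.004 under median-of-ratios rescaling. Slc25a10, the mitochondrial dicarboxylate carrier, had means of 414 ± 33.7 and 439 ± 41.6 TPM in kidney and tubules (0.08, adjusted p = 0.441), and passed under median-of-ratios rescaling (0.37, adjusted p = 0.00245).

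Of 8 genes of oxalate and glyoxylate metabolism, 6 were tested, and 2 were higher, 1 lower and 3 not called, with a median of 0.30. Under median-of-ratios rescaling 4 were higher and 1 lower (median 0.59), with Hao2 (0.77, adjusted p = 0.0343) and Aldh4a1 (0.41, adjusted p = 0.00023) added, and under quantile normalization the counts were 2 and 1. Grhpr, which reduces glyoxylate and so keeps it from becoming oxalate, rose from 321 ± 20.2 TPM (SD, n = 3) in kidney to 471 ± 32.3 TPM (SD, n = 12) in tubules (0.55, limma adjusted p = 3.06e-06). Hoga1, an enzyme of hydroxyproline breakdown, rose from 227 ± 14.9 to 354 ± 22.5 TPM (0.64, adjusted p = 5.86e-07). Prodh2, an earlier enzyme of that route, was near 0 in PTS2, at 0.508 ± 0.442 TPM against 71.6 ± 10.04 TPM (-5.63, adjusted p = 2.17e-12), and passed the filter only through its kidney level. The calls of Grhpr and Hoga1 held under each scaling. The call of Prodh2, the only lower one, held too, but a gene admitted through its kidney level could hardly be called higher in PTS2.

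The remaining genes of both families were scarce. Of 7 that are not members, 1 entered the fit: Slc13a4, a sulfate carrier, was at 2.66 ± 1.195 TPM (SD, n = 3) in kidney and 1.29 ± 0.664 TPM (SD, n = 12) in tubules. Its log2 difference was -0.67 (limma adjusted p = 0.0414) and turned to 0.18 under quantile normalization (adjusted p = 0.619). Slc13a5, Slc26a3, Slc26a5, Slc26a8, Slc26a9 and Slc26a10 had a mean under 1 TPM over the 15 libraries.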

How the data were processed

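The authors deposited TPM values, 1 row per gene and 1 column per library. STAR 2.5.1b, RSEM 1.2.31 and the build GRCm38.p5 are named in the submitters' processing notes, without a stated role, and the annotation release is not given in the sources used here. Polyadenylated RNA was amplified with a kit for very low input, per the labels' protocols. No columns of the deposited TPM table were identical, and the authors' means and errors were not used. Coordinates and exon overlaps came from GENCODE M21 (GRCm38), promoters from RefSeq.

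Groups were read from the description labels. Differences were fitted with limma 3.58.1 in R 4.3.3 on log2(TPM + 1) over genes averaging 1 TPM or more, with a mean-variance trend and Benjamini-Hochberg adjustment over all genes tested, at 0.05. PTS2 against whole kidney used the set as a correlated block (0.0669), the sets an F test and pairwise contrasts, and the numbers an F test with a set term. The fits were tested on simulated data. Tables were made with Python 3.11.15 and pandas 2.3.3 and figures with matplotlib 3.10.9.

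The members, the gene lists and the marker lists were chosen with earlier results of these data known. All 9 members are named, and of each list the 6 with the highest mean level could be described. Slc9a3r2 and Got1 are described as well, and other listed genes are named only in short counts, after their values were seen. Likeness was measured for the 2 most abundant members. Alternatives covered the pseudocount, the filter, the scaling, the blocks, single libraries and an exact permutation test. Leaving out 2 tubules together, leaving out all libraries of a number, and rescaling the gene lists were chosen after seeing the data.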

Additional observations from a re-analysis of the deposited data

Results flagged for a closer look

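In each PTS2 set of 4 tubules, a gap between an end value and the next was set against the spread from lowest to highest, by Dixon's test, for 9 genes and 27 groups in all. A gap stood out 4 times, where chance (about 1 in 20 groups) gives 1.35 for continuous values. The Slc26a4 and Slc26a7 flags below were in groups with values listed at 0. Where all other values are 0, the gap over the spread is 1.0 for any highest value. The count therefore does not measure an excess over chance. Slc13a1 in replicate 4 of m3 was at 293 TPM, with 201 TPM the next value of the set. Slc26a4 in replicate 4 of m1 was at 0.160 TPM (next 0.0100 TPM), and Slc26a7 in the same tubule was at 0.190 TPM with the other tubules of the set listed at 0. Slc26a7 in replicate 1 of m2 was at 0.0100 TPM with the others of its set listed at 0, the smallest step the table's 2 decimals can show.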

How the results depend on the processing

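Of the 4 members called in PTS2 against whole kidney, 2 were called at a mean of at least 10 TPM (5 members tested) and 2 under median-of-ratios rescaling. Leaving out single libraries gave 2 to 5 members, with 2 without whole kidney replicate 2 or 3. Direction turned under quantile normalization for Slc26a2 (0.26), Slc26a6 (0.13) and Slc26a11 (0.49). It also turned under median-of-ratios rescaling for Slc13a1 (0.02) and Slc26a11 (0.09). Genes called numbered 6161, with 9399 when unfiltered and 3113 at 10 TPM. Higher calls made up 18.9% of them, 31.6% at 10 TPM, 49.7% under median-of-ratios rescaling and 64.7% under quantile normalization. The median of all genes was -0.04 unfiltered, -0.13 at 10 TPM, -0.003 under median-of-ratios rescaling and 0.16 under quantile normalization. Among sets the 0 members called became 1 under median-of-ratios rescaling and 1 under quantile normalization, and 0 to 1 with single libraries left out. Over numbers the 2 members became 0 unfiltered, 0 without a set term, 0 without both tubules of highest thick ascending limb sums, 1, 1, 2 and 0 without numbers 1, 2, 3 and 4, 3 with the filter at 10 TPM (Slc13a1 added), and 0 to 2 with single libraries left out. Genes called among sets numbered 341, 196 unfiltered 175 without both tubules and 197 to 563 with single libraries left out. Over numbers they were 306, and 12, 493 and 3 without numbers 1, 2 and 4.

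The labels do not say what a shared number means, and the numbers were not taken as pairs because 7 of 12 same-numbered PTS2 pairs, not all, had deviations correlated over 0.1. Their mean r was 0.138, against -0.0463 for 36 other pairs. Of 12 tubules, 9 correlated best with their own number. With the replicate number as a block, 2 members were called among sets (Slc13a3, adjusted p = 0.00187, and Slc26a6, adjusted p = 0.0193), and 888 genes in all. In PTS2 against whole kidney the block gave 5 members, Slc13a1 being added (-0.36, adjusted p = 0.00379). That fit put kidney libraries in a block with tubules of the same number. Such pairs showed no likeness (mean r -0.00651, 9 pairs, 0 over 0.1). The last replicate number had tubules but no kidney library, so the added call rests on the other tubules. The share of all genes called in that fit is not given. What makes same-numbered tubules alike, and why the block changed the calls, was not tested. TPM show no depth, so the precision of the low values of Slc26a4 and Slc26a7 is unknown.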
